A study of Mus musculus with 8 samples.

Results

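The mouse zinc finger genes with the numbers Zfp400 to Zfp999 were followed in the BTBR hippocampus, with B6 as control. The rule used the gene name and, for testing, detection above background, and Zfp541 was not analysed here. The rule uses no strain difference, but the family was taken up with earlier results of these data known. The array carried 182 of these genes on 304 probes. A probe was tested when the scanner software called it well above background on 3 or 4 of the 4 arrays of either strain, and 171 of the 182 genes passed on 263 of the 304 probes, out of 18398 genes and 27981 probes tested in all. The 11 members not tested were Zfp658, whose only probe was dropped for an outlier flag, and Zfp493, Zfp560, Zfp572, Zfp640, Zfp663, Zfp735, Zfp750, Zfp760, Zfp775 and Zfp850, which were above background on too few arrays.

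RNA of the whole hippocampus was compared between 4 BTBR and 4 B6 mice, all male, 5 months old and without drug treatment, with 1 array per mouse. BTBR mice (genotype BTBR T+ Itpr3tf/J) are an inbred strain studied as a model of autism that carries the tufted allele of Itpr3, and B6 mice (C57BL/6J, labeled wild type) are the control strain. In the labels, C57BL/6J is the strain background of both groups, while title, source and genotype name BTBR for the BTBR samples. Both strains are inbred, came from the same supplier and were bred in the same vivarium, and they differ at many places in the genome, so that a difference between them belongs to the strains and not to any single allele. All levels below are log2 intensities after background subtraction and quantile normalization, and a difference is the BTBR mean minus the B6 mean on that scale. In bulk tissue, fewer cells of a type and less RNA per cell cannot be told apart.

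Between 56.9% and 71.9% of all probes were well above background on an array, and between 75.4% and 90.7% of the member probes were, with the lowest share on B6 replicate 1 in both cases. Replicates 1 and 2 of each strain shared slide 1, and replicates 3 and 4 shared slide 2. No probe was saturated. The markers of neurons, astrocytes, oligodendrocytes and endothelium were detected, and their mean levels overlapped between the strains. Among lists of neighboring tissue and other cell types, the thalamus list lay at 12.84 on BTBR replicate 1 against 10.21 to 11.03 on the other 7 arrays, and the microglia list ranged from 11.87 to 12.14 in B6 and from 12.31 to 12.59 in BTBR, with 1 of its 4 genes called higher. In the other lists 1 of 4 neuron genes was called lower and 1 of 4 meningeal genes higher. The dentate granule cell list was 1.10 lower and the pituitary list 1.13 higher in BTBR by their means, with overlapping arrays, and their part in the results below was not tested.

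Most genes with such names encode proteins of the C2H2 type, in which a pair of cysteines and a pair of histidines hold a zinc ion and fold a short finger that reads DNA. Fingers follow each other in long arrays, joined by a conserved linker. Many of the proteins start with a KRAB domain, which recruits the corepressor Trim28 and, through it, the histone methyltransferase Setdb1 and heterochromatin proteins. KRAB zinc finger genes sit in clusters that grew by gene duplication and differ between mouse strains, and several silence retroelements or guard imprinted genes. Other members have no KRAB domain and act in neural development, in splicing, on the ribosome or in the SUMO pathway.

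The measurement of each gene rests on probes of 60 bases. The probes that carry the results are printed here because several genes had probes that gave different answers. Positions are those of the mouse build mm9 in the array files, the strand is the one the probe matches, and exon or intron was not assigned because no annotation of that build was used here. All letters are in lower case except 2 patterns of the finger code, in capitals: TGTGGNAAA, which in the finger code starts at the second cysteine, and ACTGGNGA, which follows the last histidine at the start of the linker in its commonest spelling. Probes that hold a pattern are printed whole, and of the others the first 30 bases are given.
Zfp566, chr7:30862504-30862563, minus strand: tctgtagaggccctctagaccggagaatgt
Zfp933, chr4:147197098-147197157, minus strand: ggggcaggtgtattccttttcatttgaagc
Zfp933, chr4:147200007-147200066, minus strand: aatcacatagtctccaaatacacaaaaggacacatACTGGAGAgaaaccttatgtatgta
Zfp933, chr4:147200370-147200429, minus strand: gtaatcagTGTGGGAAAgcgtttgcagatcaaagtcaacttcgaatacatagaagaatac
Zfp433, chr10:81184363-81184422, plus strand: gaaacagtaaagctttggcacatcagtgta
Zfp781, chr10:81365574-81365633, minus strand: gactatgtgggtcaaacttaccctgaggaa
Zfp781, chr10:81366624-81366683, minus strand: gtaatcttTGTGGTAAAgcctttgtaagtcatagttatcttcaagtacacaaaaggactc
Zfp672, chr11:58133307-58133366, minus strand: atggcagaacaaacacccagagagaagctg
Zfp672, chr11:58128845-58128904, minus strand: ggtccataaagcccagtactgtgtgaaaca
Zfp704, chr3:9438827-9438886, minus strand: agaaggcaaaaagtgccgcaaggtttatgg
Zfp704, chr3:9427052-9427111, minus strand: gatgttcacacacatgaatttagatgcact
Zfp846, chr9:20398366-20398425, plus strand: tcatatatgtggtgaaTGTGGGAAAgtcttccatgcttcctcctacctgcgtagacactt
Zfp846, chr9:20399180-20399239, plus strand: cacaatgaggggaaatcactgatgtaagat
Zfp748, chr13:67639797-67639856, minus strand: agactgtacctgagtactctcaatctggat
Zfp748, chr13:67642844-67642902, minus strand: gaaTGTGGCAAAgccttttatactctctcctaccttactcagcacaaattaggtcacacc
Zfp748, chr13:67646076-67646135, minus strand: cattcattcattcatttctatcagaagaca
Zfp458, chr13:67357991-67358050, minus strand: agtatgtggaaatgccttctgtttttcatc
Zfp429, chr13:67490657-67490716, minus strand: gaatgtgtcaaagcctttgttaatgttata
Zfp759, chr13:67242304-67242363, plus strand: gaaacccttgttctataccagtatgtaaaa
Zfp809, chr9:22043463-22043522, plus strand: tgtgaagagtgcaagaaagctttttctcga
Zfp809, chr9:22047517-22047576, plus strand: cagtatctgactggactggcaatttgagtg
Zfp612, chr8:112613985-112614044, plus strand: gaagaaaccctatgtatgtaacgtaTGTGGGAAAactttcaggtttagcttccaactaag
Zfp932, chr5:110438411-110438470, plus strand: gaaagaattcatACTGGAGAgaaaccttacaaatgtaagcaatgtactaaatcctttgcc

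The finger patterns were found in 21 of the 304 member probes (6.91%) in sense, against 0.763% of all 41174 probes, so that most member probes lie in sequence without these letters. On the opposite strand the shares were 1.97% of the member probes and 0.549% of all probes. Both patterns were held by 2 member probes. Among the 25 member probes called between the strains, 3 held a pattern (12%), namely Zfp612 and 1 probe each of Zfp846 and Zfp781. Because fingers repeat between genes, the longest run of bases that a probe shares with a probe of another gene was also counted. Of the 263 tested probes, 12 shared a run of at least 20 bases, among them Zfp932 with 25 bases in common with Zfp72, and the signal of these 12 may not belong to the named gene alone. None of the 25 called probes was among them, and their longest shared run was 18 bases, in the finger probe of Zfp781.

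Expression of 23 of the 171 member genes (13.5%) differed between BTBR and B6, 9 higher and 14 lower in BTBR, with the largest fall in Zfp566 and the largest rise in Zfp704. A gene counted as called when at least 1 of its probes had an adjusted p under 0.05 in limma, with Benjamini-Hochberg adjustment over all 27981 probes, and 10.1% of all 18398 genes were called in this way. By direction, 5.26% of the members were higher against 4.28% of all genes, and 8.19% were lower against 5.77%. Over probes, 25 of 263 were called (9.51%), with 7.61% called among all probes, 9 of them higher (3.42%, against 3.31% of all probes) and 16 lower (6.08%, against 4.3%), and no member had probes called in both directions. The shares among members thus lay near those of all genes in each direction. Of the 263 member probes 6 passed the filter in 1 strain alone, where a dim probe is tested only if it is high enough in that strain. The called probes of Zfp458 and Zfp459 were among the 6, and without the 6 probes 21 of 168 member genes (12.5%) were called, 12 of them lower. Of the 113 tested genes numbered Zfp1 to Zfp399, 4 were higher and 17 were lower.

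The size of the differences was small in most members. By the brightest probe of each gene, 91 members were higher and 80 lower in BTBR, and the median difference was 0.012 over the members and 0.011 over all genes. The middle 50% of the members lay between -0.09 and 0.09, and 222 of 263 member probes (84.4%) differed by less than 0.25 on the log2 scale, against 80.3% of all probes. A difference of at least 1 on the log2 scale was measured in 5 member probes (1.9%) and in 1.65% of all probes. The SD within a strain had a median of 0.09 in B6 and 0.11 in BTBR over the member probes.

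In 42 of 263 member probes (16%) the arrays of the strains did not overlap, and this was so for 14.2% of all probes. The 25 called probes were all among these 42. Without overlap between the strains, their direction had to be the same on both slides, so that the slides add no separate result here. For a probe without overlap, the exact two-sided permutation test of 4 against 4 arrays gives 0.0286, the smallest p this design allows. A difference of the strain effect between the slides was called for 0 member probes by limma with an interaction term, with 22 (8.37%) at an unadjusted p under 0.05, and for 0 of all probes, with 9.94% at an unadjusted p under 0.05.

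**Figure D1:**
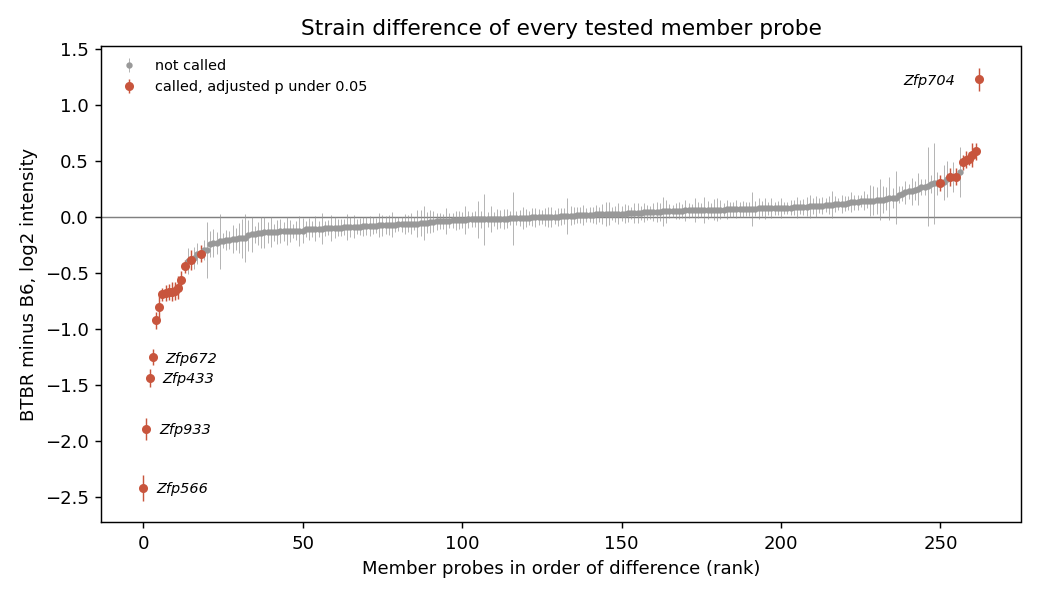
Each point is 1 of the 263 tested member probes, in order of its BTBR minus B6 difference in log2 intensity, with its standard error. The 25 called probes (red) lie mainly at both ends, from -2.42 (Zfp566) to 1.23 (Zfp704), and most other points lie near 0.

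Zfp566, a C2H2 zinc finger gene on chromosome 7, had the largest difference of the members. Its levels were 12.62, 12.51, 12.24 and 12.10 in B6 replicates 1 to 4 and 9.88, 9.99, 10.03 and 9.90 in BTBR replicates 1 to 4. All 4 BTBR arrays lay far below all 4 B6 arrays, and the level was 5.34-fold lower in BTBR (log2 difference -2.42 ± 0.11, SE, n = 4 per strain, limma adjusted p = 2.27e-06). Only 1 probe measured Zfp566, so that no other probe could be set beside it.

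Zfp933, on chromosome 4, came next, with a difference that rested on 1 of its 3 tested probes. This probe lay at 11.26, 10.83, 11.09 and 11.10 in B6 and at 9.17, 9.08, 9.27 and 9.19 in BTBR, without overlap. The level was 3.71-fold lower in BTBR (log2 difference -1.89 ± 0.10, SE, adjusted p = 3.32e-06, limma). The other 2 probes of Zfp933, which hold the finger patterns printed above, gave differences of 0.05 and -0.08 and were not called.

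Zfp433, on chromosome 10, was measured by 1 probe and stood lower in BTBR. Its levels were 11.70, 11.61, 11.46 and 11.48 in B6 and 10.14, 10.23, 9.996 and 10.16 in BTBR. The lowest B6 array exceeded the highest BTBR array by more than 1 on the log2 scale, and the level was 2.70-fold lower in BTBR (log2 difference -1.43 ± 0.08, SE, adjusted p = 6.53e-06, limma).

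Zfp672, on chromosome 11, was lower by 1 probe and not by the other. The probe at chr11:58133307-58133366 read 11.38, 11.36, 11.28 and 11.19 in B6 and 9.94, 10.11, 10.12 and 10.03 in BTBR, a 2.38-fold fall without overlap (log2 difference -1.25 ± 0.07, SE, adjusted p = 7.51e-06, limma). The probe at chr11:58128845-58128904 gave a difference of 0.22 and was not called. The array files assign these probes to different transcript records of the gene.

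Zfp704, on chromosome 3, was the member with the largest rise. One of its probes read 12.20, 12.06, 12.41 and 12.27 in B6 and 13.45, 13.51, 13.66 and 13.26 in BTBR, and every BTBR array lay above every B6 array. The level was 2.35-fold higher in BTBR (log2 difference 1.23 ± 0.10, SE, adjusted p = 9.75e-05, limma). The other probe of Zfp704, at chr3:9427052-9427111, gave -0.06 with overlapping arrays and was not called.

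**Figure D2:**
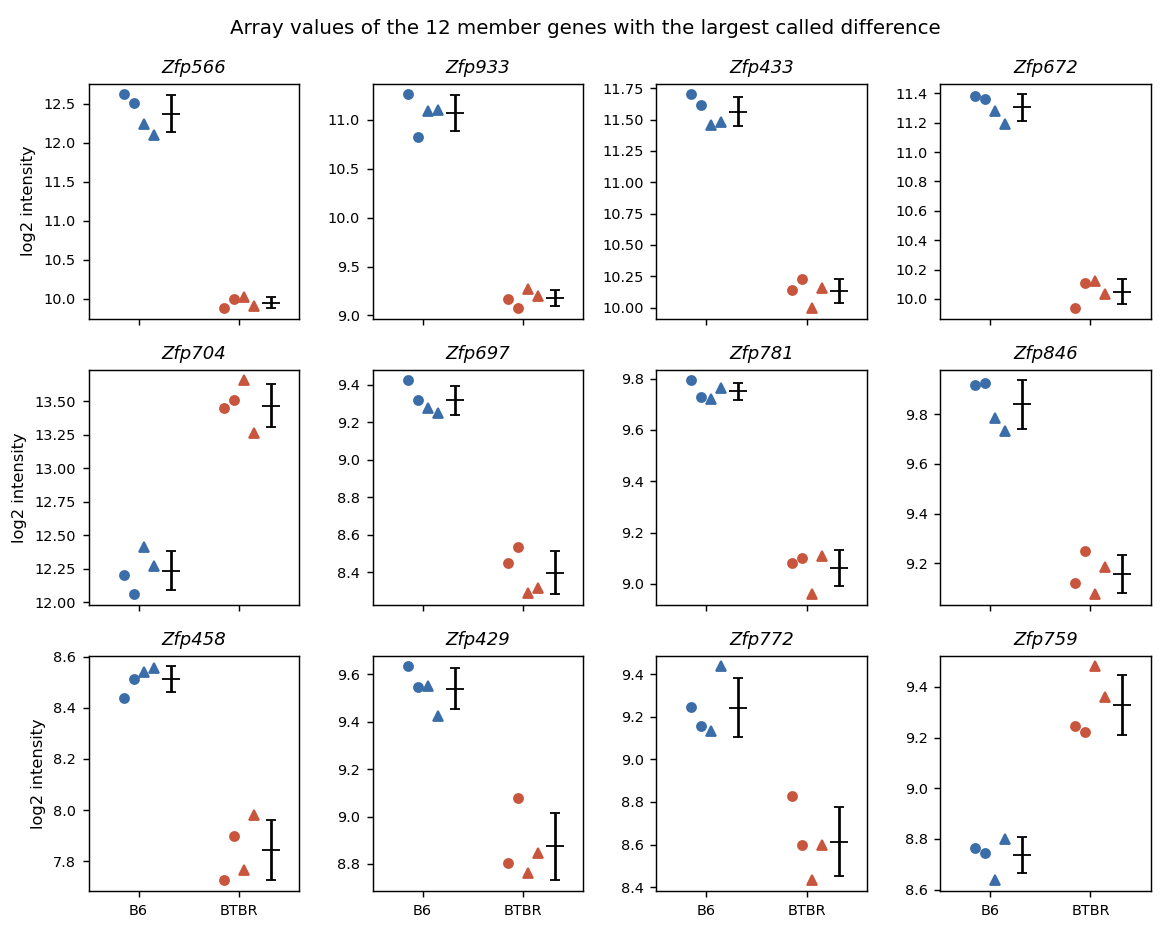
Log2 intensity on each array for the 12 member genes with the largest called difference, by the called probe with the smallest p, with circles for slide 1, triangles for slide 2 and the mean ± SD (n = 4) in black. In each panel the B6 (blue) and BTBR (red) arrays do not overlap, and Zfp704 and Zfp759 are the only genes of the 12 that are higher in BTBR. Each panel has its own vertical axis, which does not start at 0.

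Zfp846 on chromosome 9 and Zfp781 on chromosome 10 were the only called genes with more than 1 tested probe in which every probe was called. The finger probe of Zfp846 ranged from 9.73 to 9.92 in B6 and from 9.08 to 9.25 in BTBR, and the other from 9.29 to 9.41 and from 8.30 to 8.75. The differences were -0.68 ± 0.07 and -0.80 ± 0.10 (SE, adjusted p = 0.000406 and 0.000931, limma), so that both probes placed Zfp846 lower in BTBR by a similar amount. For Zfp781 the finger probe ranged from 9.72 to 9.79 in B6 and from 8.96 to 9.11 in BTBR, and the other from 8.78 to 8.99 and from 8.14 to 8.38. Its 2 differences were -0.69 ± 0.06 and -0.66 ± 0.08 (SE, adjusted p = 0.000118 and 0.000764, limma), again without overlap. The sizes of the dimmer probes depend on the scale: with the processed signal of the scanner software, which is not raised by 50 before the log, the second probe of Zfp781 gave -1.47 and that of Zfp846 -1.35.

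In total, 13 of the 23 called genes had 2 or 3 tested probes. All probes had the same sign in 6 of them (Zfp697, Zfp772, Zfp781, Zfp846, Zfp951 and Zfp593), and in the other 7 (Zfp473, Zfp612, Zfp672, Zfp704, Zfp748, Zfp809 and Zfp933) at least 1 probe pointed the other way without being called. The remaining 10 called genes were measured by a single tested probe. A call of a member was therefore a call of a probe, and for most of these 13 genes the probes of the gene did not move together. Whether base differences between the strains lie under the probes was not tested.

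**Figure D3:**
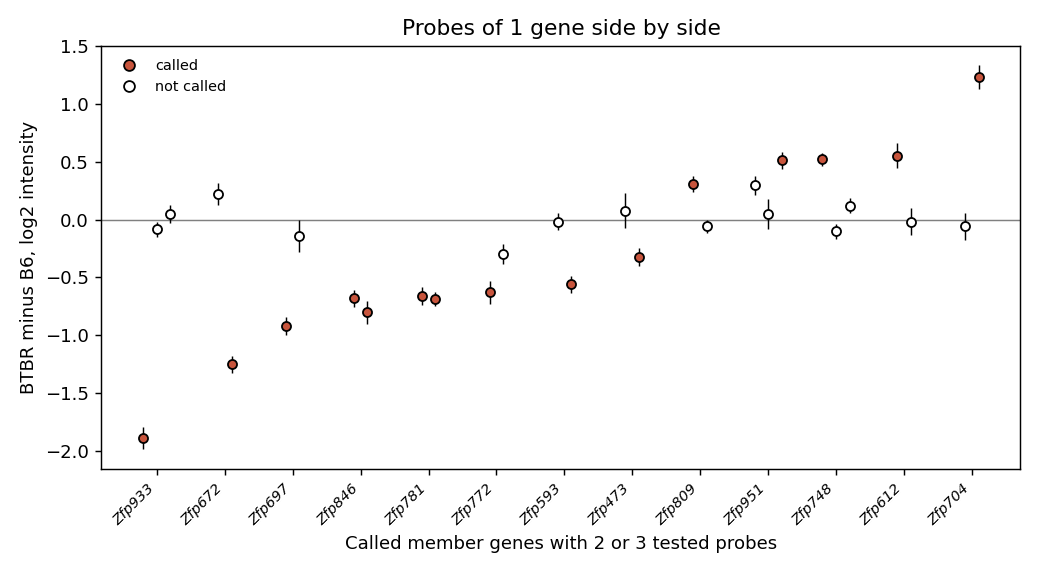
BTBR minus B6 difference in log2 intensity, with its standard error, for each tested probe of the 13 called genes that have 2 or 3 of them, in order of position on the chromosome within a gene. Filled points were called and open points were not. Zfp846 and Zfp781 show filled points only, whereas in Zfp933, Zfp672 and Zfp704 a filled point far from 0 stands beside open points near it.

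Several further members were lower in BTBR. Zfp697 on chromosome 3 ranged from 9.25 to 9.42 in B6 and from 8.29 to 8.53 in BTBR (difference -0.92 ± 0.08, SE, adjusted p = 8.75e-05, limma). Its second probe gave -0.14 and was not called. Zfp772 on chromosome 7 gave -0.63 ± 0.10 (SE, adjusted p = 0.00485) and, by its other probe, -0.29 without a call, both below 0. Zfp935 on chromosome 13, measured by 1 probe outside the cluster described below, ranged from 8.79 to 8.84 in B6 and from 8.31 to 8.45 in BTBR (difference -0.44 ± 0.06, SE, adjusted p = 0.00138). In each of these 3 genes the called probe showed no overlap between the strains. With the processed signal the differences were -1.60 for Zfp697, -1.001 for Zfp772 and -0.93 for Zfp935.

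Zfp473, whose human counterpart takes part in the processing of histone messenger RNA ends as a partner of the U7 particle, had the weakest call. One probe gave -0.32 ± 0.08 (SE, adjusted p = 0.0364, limma) and the other 0.08, with arrays from 7.77 to 8.55 in B6 and from 8.04 to 8.29 in BTBR for the latter. The call of Zfp473 was absent in 14 of 22 alternative settings, among them each array left out in turn except BTBR replicate 1 (adjusted p from 0.061 to 0.108), and with the processed signal of the scanner software its difference was 0.07.

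Among the members that were higher in BTBR, differences other than that of Zfp704 were below 0.6 on this scale. Zfp612 on chromosome 8 ranged from 12.48 to 12.80 in B6 and from 12.97 to 13.38 in BTBR by its finger probe (difference 0.55 ± 0.11, SE, adjusted p = 0.013), while its second probe gave -0.02. The call of Zfp612 was lost with median centring, within slide 2 and with the median over its probes (adjusted p from 0.0724 to 0.257). Zfp951 on chromosome 5 ranged from 12.26 to 12.40 in B6 and from 12.66 to 12.90 in BTBR (0.51 ± 0.08, adjusted p = 0.00301), and its other 2 probes gave 0.30 and 0.05. Zfp868 on chromosome 8 ranged from 11.60 to 11.74 and from 12.06 to 12.23 (0.49 ± 0.07, adjusted p = 0.00225). None of these ranges overlapped, and all 3 are limma results with n = 4 per strain.

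Zfp784 on chromosome 7 and Zfp677 on chromosome 17 rose by less. Zfp784 ranged from 9.46 to 9.71 in B6 and from 9.90 to 10.06 in BTBR (difference 0.36 ± 0.08, SE, adjusted p = 0.0208, limma). Zfp677 ranged from 8.69 to 9.00 and from 9.08 to 9.29 (0.36 ± 0.08, adjusted p = 0.0286), and gave 0.59 with the processed signal. Leaving out 1 array ended the call of Zfp677 for 6 of the 8 arrays (B6 replicates 2, 3 and 4 and BTBR replicates 1, 2 and 4) with adjusted p from 0.0656 to 0.0825, and that of Zfp784 for 4 of them (B6 replicates 2 and 3 and BTBR replicates 2 and 4), with adjusted p from 0.0549 to 0.0689.

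Members lay close to each other on the chromosomes. Member genes on the array were linked when their probes lay at most 1 Mb apart, and 98 of the 182 genes fell into 17 clusters of at least 3 genes on 8 chromosomes, with 7 of the clusters on chromosome 7. Of the 92 tested genes in clusters 14 were called (15.2%), and of the 79 outside 9 were called (11.4%), beside 10.1% of all genes. The 14 include Zfp458 and Zfp459, whose called probes passed the filter in B6 alone, and the shares were not tested against each other. In the reported fit only 2 clusters held more than 1 called gene, those on chromosomes 13 and 10. With the slide as a block, Zfp773 was also called beside Zfp772 on chromosome 7 and Zfp930 beside Zfp868 on chromosome 8. With the processed signal Zfp869 was called beside Zfp868. The cluster at chr7:134380657-135029250 with 10 tested genes, that at chr17:32906722-33768656 with 9 and that at chr6:47769485-48572693 with 7 held no called gene, and the cluster at chr17:21535609-23000704 held 1, Zfp677, among 9.

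**Figure D4:**
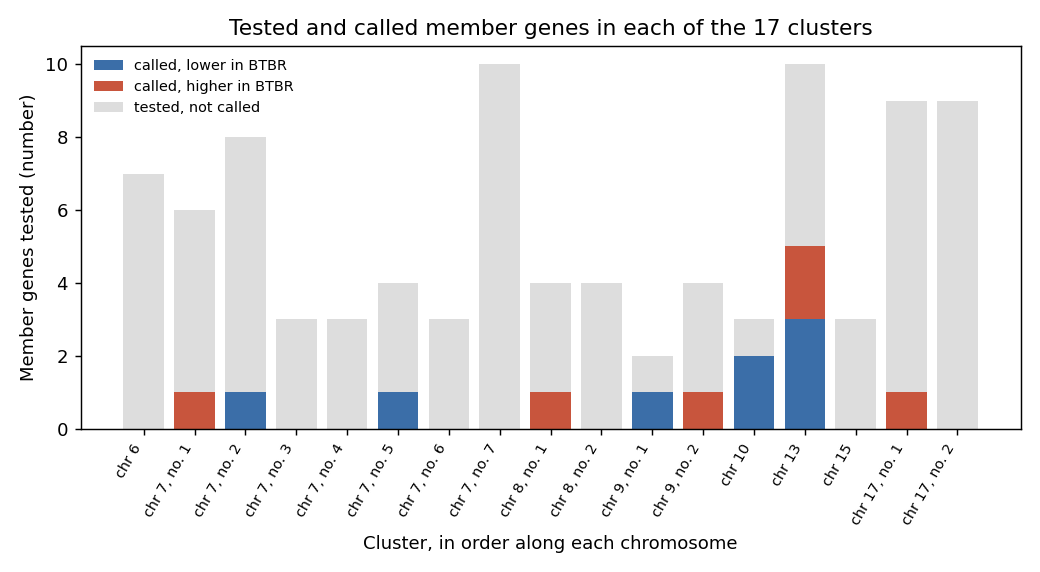
Number of tested member genes in each of the 17 clusters, split into genes called lower in BTBR (blue), called higher (red) and not called (gray). The chromosome 13 cluster holds 5 called genes, in both directions, among 10 tested, and the chromosome 10 cluster 2 among 3. Without the probes that passed the filter in 1 strain alone, the chromosome 13 count is 3 among 8. In the reported fit no other cluster holds more than 1, and 10.1% of all genes were called.

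The chromosome 13 cluster, at chr13:66141640-67884739, held 12 members, of which 10 were tested and 5 were called, 2 higher and 3 lower in BTBR, while 10.1% of all genes were called. Without the probes that passed the filter in 1 strain alone, 3 of 8 genes were called. RefSeq lists Rsl or Rslcan names as synonyms for 9 of the 12, among them Rsl2 for Zfp429. Rsl stands for regulator of sex limitation, after KRAB zinc finger genes of this region that restrain male-specific genes in mouse liver. Of these 9 genes 8 were tested, and the 5 called genes of the cluster are all among them.

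In order along the cluster, Zfp759 was the first called gene and was higher in BTBR. Its levels were 8.76, 8.74, 8.64 and 8.80 in B6 and 9.24, 9.22, 9.48 and 9.36 in BTBR (difference 0.59 ± 0.08, SE, adjusted p = 0.00134, limma), without overlap, and the difference was 1.095 with the processed signal. Zfp455, the next gene, gave -0.39 (adjusted p = 0.095) and was not called. Zfp458 followed with levels of 8.44, 8.51, 8.54 and 8.55 in B6 and 7.73, 7.90, 7.77 and 7.98 in BTBR. It was the only member probe well above background on all arrays of one strain and on none of the other, so its BTBR level is a bound, and on the log2 scale used here, with values raised by 50, the gene was at least 1.59-fold lower in BTBR (limma adjusted p = 0.000508, for a probe tested through its B6 arrays). This bound has the same size as the fitted difference, so that the detection limit did not change it. It holds on that scale alone, with measured differences of -0.67 here, -0.40 in the deposited matrix and -2.64 with the processed signal. The other 2 probes of Zfp458 were above background on too few arrays to be tested. The nearer of these, at chr13:67358022-67358081, overlaps the called probe and was above background on 1 B6 and 2 BTBR arrays. It read 8.48, 7.94, 7.77 and 7.73 in B6 and 7.91, 7.90, 7.99 and 8.04 in BTBR, and so did not show the fall.

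Further along, Zfp429 read 9.63, 9.55, 9.55 and 9.42 in B6 and 8.80, 9.08, 8.76 and 8.85 in BTBR, all lower (difference -0.67 ± 0.09, SE, adjusted p = 0.00129, limma). Its neighbor Zfp459 was dim, with 8.43, 8.35, 8.10 and 8.10 in B6 and 7.93, 7.82, 7.88 and 7.83 in BTBR, where 1 of 4 arrays was well above background. The fitted difference (-0.38 ± 0.09, SE, adjusted p = 0.0324, limma) thus rests on a BTBR level that is mostly not above background, and it was -0.22 in the deposited matrix, where it was not called (adjusted p = 0.0657), and -1.71 with the processed signal. Its call was lost when B6 replicate 1 or 2 or any BTBR array was left out, with adjusted p from 0.0555 to 0.108. Zfp748 had 1 called probe of 3, with 9.91, 9.91, 9.87 and 9.82 in B6 and 10.40, 10.42, 10.35 and 10.45 in BTBR (difference 0.52 ± 0.06, SE, adjusted p = 0.000467, limma). Its finger probe gave -0.10 and its remaining probe 0.12. Genes higher and lower in BTBR thus lay within the same short stretch, with the rising genes Zfp759 and Zfp748 on either side of the falling ones. Of the falling genes, Zfp458 and Zfp459 were tested through their B6 arrays alone, and only Zfp429 passed the filter in both strains. Zfp708, a factor that binds retroelements of the RMER19B type, gave -0.20 ± 0.08 (SE, adjusted p = 0.204) and was not called.

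**Figure D5:**
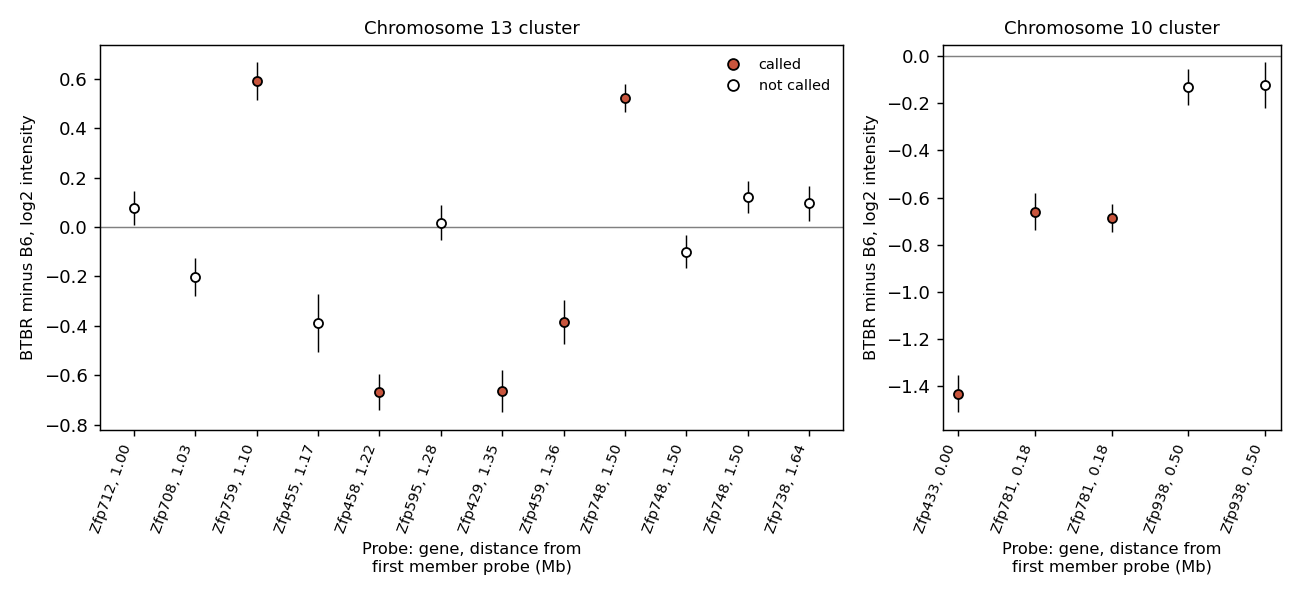
BTBR minus B6 difference in log2 intensity, with its standard error, for each tested probe of the chromosome 13 cluster (left) and the chromosome 10 cluster (right), ordered along the chromosome, with the distance from the first member probe of the cluster in Mb beside each gene. Filled points were called. On chromosome 13 the called genes lie on both sides of 0, and on chromosome 10 the 3 called probes, of Zfp433 and Zfp781, lie below 0.

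The chromosome 10 cluster, at chr10:81184363-81688572, held Zfp433, Zfp781 and Zfp938. Zfp433 and both probes of Zfp781, described above, were lower in BTBR. Both probes of Zfp938, which lies 0.504 Mb from the start, gave -0.13 and -0.12 and were not called. The count of called genes stayed at 2 in this cluster in all 22 alternative settings and ranged from 3 to 5 in the chromosome 13 cluster, with the lowest count when a probe had to be well above background on all 8 arrays, which removes the dim probes of Zfp458 and Zfp459.

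Lists of members by their role in the cell were also counted. They do not hold every member with a known role, and Zfp473 and Zfp429, described above, are outside them. Of the 25 tested members of the lists 2 were called (8.0%), a share near the 10.1% of all genes. Of 6 tested genes on the list for retroelements and imprinting, 1 was higher and none lower in BTBR. The called gene was Zfp809, which recognizes the primer binding site of murine leukemia proviruses and keeps them silent. Its called probe read 8.60, 8.50, 8.45 and 8.43 in B6 and 8.72, 8.72, 8.88 and 8.89 in BTBR (difference 0.31 ± 0.07, SE, adjusted p = 0.0314, limma). The arrays did not overlap, but the second probe of Zfp809, with 10.79 to 10.88 in B6 and 10.73 to 10.82 in BTBR, gave -0.06 and was not called. The difference was 0.63 with the processed signal and 0.17 within slide 1. The call of Zfp809 was absent when B6 replicate 2, 3 or 4 or BTBR replicate 3 or 4 was left out (adjusted p from 0.0655 to 0.103).

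Zfp445, which protects imprinted genes after fertilization, gave 0.06, 0.01 and 0.15 on its 3 probes. Zfp819, which acts on retroelements in germ cells, gave 0.13 ± 0.09 and Zfp597 gave 0.17 ± 0.19 (SE). Zfp932, a repressor of endogenous retroviruses, gave 0.28 ± 0.35 (SE) and varied widely among mice, with 8.53, 9.51, 9.15 and 9.68 in B6 and 9.60, 9.93, 8.50 and 9.94 in BTBR. B6 replicate 1 and BTBR replicate 3, the arrays with the smallest shares of probes above background, gave the lowest levels of Zfp932, and the part of this in its spread was not tested.

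Of the 4 tested members on the list for ribosomes and RNA, Zfp593 was lower in BTBR. Zfp593, known in yeast and human cells for a part in making the large ribosomal subunit, read 12.001, 12.12, 11.94 and 11.97 in B6 and 11.31, 11.47, 11.57 and 11.46 in BTBR by 1 probe (difference -0.56 ± 0.07, SE, adjusted p = 0.00168, limma). These arrays did not overlap, whereas its second probe, 11.25 to 11.35 in B6 and 11.12 to 11.41 in BTBR, gave -0.02. Zfp598, the ubiquitin ligase that marks collided ribosomes, gave 0.03 ± 0.10, and Zfp622, a maturation factor of the large subunit, gave -0.10 ± 0.07 (SE). Zfp830, a nuclear factor linked to splicing, gave -0.03 and -0.19 on its 2 probes. Zfp598, Zfp622 and Zfp830 were not called.

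None of the 6 tested neural and developmental regulators was called, which at 10.1% of all genes called says little for a list this short. Zfp423, a partner of Ebf factors needed for the cerebellum, had the widest spread of the tested members in BTBR: its brighter probe read 9.59, 9.89, 9.75 and 9.94 in B6 and 11.32, 9.89, 9.33 and 9.84 in BTBR (difference 0.30 ± 0.36, SE). The high value belonged to BTBR replicate 1, the array with the high thalamus list, and the second probe of Zfp423 was high on the same array, at 10.27. Without BTBR replicate 1 the differences of the 2 probes were -0.10 and -0.09. What the thalamus list contributes to Zfp423 was not tested. Zfp521, a regulator of neural and blood progenitors, gave 0.34 ± 0.16, Zfp536, a repressor of neuronal differentiation, -0.20 ± 0.13, and Zfp503, a regulator of striatal development, -0.01 ± 0.24 (SE). Zfp462, a large nuclear protein of chromatin and pluripotency, gave 0.17 and 0.36 on its 2 probes, and the X-linked Zfp711, a partner of Phf8, gave 0.00 and -0.20. The second probe of Zfp711 gave -0.37 within slide 1 alone, where it was called (limma adjusted p = 0.0435), and -0.04 within slide 2.

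The 3 members that form a complex with Zmynd8 (Zfp532, Zfp592 and Zfp687) were not called either. Zfp532 gave 0.03 and 0.07, Zfp592 gave 0.20 and -0.07, and Zfp687 gave -0.23 ± 0.10 (SE). The median over the 3 genes was 0.026, against 0.011 over all genes.

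The 6 other members with a known partner or target were also not called. Zfp410, which acts through Chd4, gave 0.07 ± 0.07 (SE), and Zfp746, the repressor known as Paris that is cleared by parkin, gave 0.04 ± 0.07. Zfp451, a SUMO ligase, gave differences between -0.08 and 0.08 on its 4 probes. Zfp516, which takes part in brown fat thermogenesis, gave 0.12 and 0.23, Zfp644, a partner of the histone methyltransferases Ehmt1 and Ehmt2, gave -0.02, -0.12 and -0.01, and Zfp407 gave -0.09 and 0.05. A difference that was not called does not show that the strains have the same level, and the smallest called difference among the members was the 0.31 of Zfp809.

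The corepressors through which KRAB zinc finger proteins act were measured beside them. Of 32 tested genes of this list 1 was higher and 4 were lower in BTBR (15.6% called, against 10.1% of all genes), and their median difference was -0.02. The 32 include Zfp57, itself a zinc finger gene and not a corepressor, which gave 0.06 and was not called. Trim28, the direct partner of the KRAB domain, read 13.91, 13.99, 14.05 and 14.17 in B6 and 14.22, 13.96, 13.90 and 14.26 in BTBR (difference 0.05 ± 0.10, SE, adjusted p = 0.84, limma), and Setdb1 gave -0.07 ± 0.07 (SE, adjusted p = 0.694). The arrays of Trim28 and of Setdb1 overlapped between the strains.

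Hdac1, a histone deacetylase of several corepressor complexes, was by name the gene of this list called higher. It read 12.26, 11.96, 12.09 and 12.22 in B6 and 13.33, 13.21, 13.79 and 13.62 in BTBR on its only probe (difference 1.36 ± 0.13, SE, adjusted p = 0.000261, limma). All BTBR arrays lay above all B6 arrays. The array files place this probe at chr17:78892656-78892726, whereas RefSeq has Hdac1 on chromosome 4, so that the signal may not belong to Hdac1. Of 96 probes of the lists matched to RefSeq it was the only one on another chromosome than its gene, and all 300 matched member probes lay on that of their gene. Cbx5, which encodes the heterochromatin protein HP1 alpha, was lower by 2 of its 3 probes, with differences of -0.42 ± 0.07 and -0.39 ± 0.07 (SE, adjusted p = 0.00485 and 0.0102), and its remaining probe gave 0.00. Cbx3, which encodes HP1 gamma, gave -0.33 ± 0.08 (adjusted p = 0.0451) and, on its second probe, -0.10 without a call. The call of Cbx3 was lost without any of the 4 B6 arrays or BTBR replicate 1 or 2 (adjusted p from 0.0722 to 0.123), and also with the processed signal, median centring, no filter on dim probes, the replicate block, within slide 2 and with the median over probes (adjusted p from 0.0541 to 0.499). Neither of the 2 called probes of Cbx5 was called within slide 1 or slide 2 alone (adjusted p from 0.0616 to 0.0862).

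Trim24, a relative of Trim28, gave -0.29 ± 0.06 (SE, adjusted p = 0.0134, limma) and -0.20 on a probe that was not called. Its call was lost with the processed signal, with the replicate number as a block and within each slide (adjusted p from 0.0503 to 0.181). Atf7ip, the partner that stabilizes Setdb1, had probes called in opposite directions: 1 read 11.89, 11.88, 11.91 and 11.95 in B6 and 11.31, 11.37, 11.30 and 11.39 in BTBR (difference -0.56 ± 0.06, adjusted p = 0.00026), another gave 0.30 ± 0.06 (adjusted p = 0.0116), and the remaining probe gave 0.04. The call of the higher probe was lost with median centring, with the replicate block and within each slide (adjusted p from 0.056 to 0.102). The lower probe lies at chr6:136555455-136555514 and the higher probe at chr6:136555446-136555505, so that they overlap on the gene. Which of them follows the level of Atf7ip was not tested. Atf7ip was counted as lower only by the rule of the smaller p. The probe named for Hdac1 and, in Atf7ip, a probe that stood against others of its gene carried the largest differences of the list.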

How the data were processed

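The authors deposited unscaled spot intensity values from single-color Agilent arrays, read per the file headers with Feature Extraction version 10.7.3.1, and a background-subtracted, quantile-normalized log2 matrix. Here each spot's mean intensity less its local background, with a minimum of 0.5, was raised by 50, put on the log2 scale and quantile normalized over all 45018 spots, after which controls and outlier-flagged spots were dropped and the median of replicate spots was taken. Limma 3.58.1 in R 4.3.3 fitted strain alone, and adjusted p under 0.05 was called. The rank product of the methods was not used, since it permutes probes. The members, lists and clusters were chosen with earlier results of these data known. Genes named with values were the 15 largest rises and 15 largest falls among called members, members of role lists, called genes of clusters with at least 2 of them, and called corepressors with Trim28 and Setdb1 (1 item of that list is not reported here). Others (Zfp455, Zfp938) complete a cluster and were named after their values were seen. Sequences come from the array files, and synonyms for 180 of 182 genes from RefSeq (GRCm38.p6). The scripts were tested on simulated data. The deposited matrix, other corrections and filters, slide, replicate and left-out arrays were tried as alternatives.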

Additional observations from a re-analysis of the deposited data

Results flagged for a closer look

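In 12 of 148 groups of 4 arrays that were checked over the probes named in the report, 1 array lay far from the other 3 of its strain, by a gap over more than 0.829 of the range. Chance gives about 1 in 20 such groups, and no explanation was tested. BTBR replicate 3 stood apart in 5 of them: high for Zfp597 (9.34, others 8.47 to 8.49) and for a probe of Zfp445 (10.53, others 9.63 to 9.77), and low for Zfp687 (11.85, others 12.20 to 12.26), a probe of Zfp644 (10.37, others 10.74 to 10.80) and a probe of Zfp830 (9.48, others 10.24 to 10.32). BTBR replicate 1 was high for a probe of Zfp423 (10.27, others 9.15 to 9.27), for Zfp746 (11.83, others 11.60 to 11.64) and for a probe of Cbx5 (12.16, others 11.92 to 11.95). BTBR replicate 2 was high for a probe of Zfp516 (9.88, others 9.63 to 9.64). In B6, replicate 4 was high for the called probe of Zfp951 (12.40, others 12.25 to 12.26) and for Setdb1 (10.71, others 10.48 to 10.52), and replicate 2 was high for Zfp503 (9.73, others 9.20 to 9.22). Zfp951 and Cbx5 were called without these arrays too, and the other genes were not called.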

How the results depend on the processing

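Of the 23 called member genes, 10 were called in all 22 alternative settings (Zfp429, Zfp433, Zfp566, Zfp672, Zfp697, Zfp704, Zfp759, Zfp781, Zfp846 and Zfp935), and no setting called a gene in the opposite direction. Within slide 2 alone 15 member genes were called, 4 of them higher, with 2 corepressors, 1 role list gene and a median difference of 0.033. At an adjusted p under 0.01, 5 genes were higher, and 3 corepressors and 1 role list gene were called. When each gene was given the median of its probes, 17 genes were called, 5 of them higher, and values turned sign for Atf7ip (-0.35), Zfp748 (-0.10) and Zfp933 (0.049). For Zfp748 and Zfp933 this median is the level of a probe that was not called, and for Atf7ip it falls on different probes in the 2 strains, so that -0.35 is no strain difference of either. The probe of Zfp473 turned to 0.067 with the processed signal, which called 3 corepressors where the reported fit called 5; the cause was not tested. The processed signal made the difference of 10 of the 25 called member probes 1.59 to 4.459 times as large, most in Zfp459 and Zfp458, and the deposited matrix made those of Zfp458, Zfp459 and Zfp473 0.577 to 0.655 times as large. The median over probes made those of 8 probes 0.383 to 0.578 times as large. Apart from the replicate block and the left-out arrays, calls lost were those of Zfp473 with the processed signal, Zfp612 with median centring, Zfp459 and Zfp473 in the deposited matrix, Zfp458 and Zfp459 with detection required on all arrays, Zfp459, Zfp473, Zfp612, Zfp677, Zfp784 and Zfp809 at an adjusted p under 0.01, Zfp473, Zfp612, Zfp748, Zfp809, Zfp933 and Zfp951 with the median over probes, Zfp473, Zfp677, Zfp772, Zfp784 and Zfp809 within slide 1, and Zfp459, Zfp473, Zfp593, Zfp612, Zfp677, Zfp784, Zfp868 and Zfp951 within slide 2. With the slide as a block no call was lost, and Zfp691, Zfp773 and Zfp930 were called in addition. Calls were also gained for Zfp869 and Zfp950 with the processed signal and for Zfp691 in the deposited matrix. Within slide 1 they were gained for Zfp711 and Zfp831. Median centring gave a median difference of -0.010. With each array left out in turn, 20 to 23 member probes and 18 to 21 member genes were called, 6 to 9 higher and 12 to 13 lower, with 4 to 6 corepressors and 1 to 2 role list genes, and the median difference was 0.00681 to 0.018. Linking neighbors at up to 2 Mb gave 16 clusters, and those at chr7:4873434-7156387 and chr9:18260180-22081560 then also held 2 called genes each. With the replicate number as a block 19 member genes and 21 probes were called, with 3 corepressors and 1 role list gene, and Zfp459, Zfp473, Zfp784 and Zfp809 were not called. Deviations from the strain means correlated between arrays of the same number at -0.142, 0.51, -0.101 and 0.39, so that the numbers do not pair the mice. Dim probes and 4 mice per strain limit which differences could be called.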
